A study of Mus musculus with 46 samples.

Results

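Solute carrier genes, whose symbols begin with Slc, encode the largest group of membrane transporters in mammals. The genes described here are the protein-coding ones named Slc, a family number and the letter a, with a mean of at least 1 CPM (reads of a gene relative to the library's total, scaled by the authors with TMM factors) over 8 cell lines. Members were thus chosen by their mean level over the lines, a value that both line groups entered. That rule kept 222 of 229 such genes among the 14360 genes listed for the lines. The members belong to 43 families. The 3 members nearest above the threshold were Slc10a4, Slc4a11 and Slc23a1, with means of 1.07, 1.08 and 1.18 CPM. The 3 nearest below it were Slc2a2, Slc45a3 and Slc39a5, with 0.946, 0.927 and 0.882 CPM. The RP mean was under 1 CPM for 4 members and the RPM mean for 5, so these few passed through 1 group alone. A second table, of 14056 genes, listed 205 of the 222 members, and the other 17 had no value there, among them the glutamate transporters Slc1a1, Slc1a2 and Slc1a3. That table held 10 further Slc genes of the same naming pattern, 7 that the first table does not list and 3 below the threshold, and they were not described. Transporters whose symbols use another letter are outside the set. By family, 37 members carry amino acids, 17 glucose and other sugars, 38 inorganic ions such as sodium, calcium, chloride or bicarbonate, 27 metal ions and 38 mitochondrial substrates. The rest are 11 carboxylate, 14 nucleoside and vitamin, 20 lipid, choline and organic ion, 7 neurotransmitter and vesicular and 5 nucleotide sugar carriers, with 4 others. The last 4, Slc7a6os, Slc4a1ap, Slc9a3r1 and Slc9a3r2, share the name but are not transporters. Slc25a17 and Slc25a46 are counted with the mitochondrial family although they sit in the peroxisome and the outer mitochondrial membrane.

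The libraries came from thyroid tumour cells of mice with conditional mutations in Rb and p53, or in Rb, p53 and Max, induced by tamoxifen through Cre under Ascl control in neuroendocrine cells. There were 4 lines mutant in Rb and p53 (RP) and 4 mutant in Rb, p53 and Max (RPM). In a separate experiment 1 Rb, p53 and Max mutant line carried either an empty vector (3 libraries) or a vector expressing Max (Max addback, 3 libraries). By its name this line is RPM replicate 2, and all 6 of these libraries are labelled as mutant in Rb, p53 and Max. The sources used here do not give strain, age or sex of the mice. The 32 tumour libraries of the 46 samples were not analysed here. By their names all 6 libraries of the addback experiment are of 1 line, and nothing says whether they were separate cultures. Their p-values therefore measure only the spread between these libraries. The question the design addresses is how loss of MAX alters transcription.

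MAX is the obligate partner of MYC, and MYC-MAX and MXD-MAX or MNT-MAX pairs bind the E-box CACGTG. Solute carriers set what enters and leaves the cell and its organelles. Slc7 and Slc1 proteins and their relatives carry amino acids, Slc2 proteins glucose, Slc16 proteins lactate and other monocarboxylates, and Slc25 proteins move metabolites, nucleotides and cofactors across the inner mitochondrial membrane. Slc8 and Slc24 proteins exchange sodium for calcium across the plasma membrane and are abundant in excitable cells. Slc30 proteins move zinc out of the cytosol and Slc39 proteins bring it in.

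Several properties of the libraries bear on all results below. Reads over listed genes totalled 6738614 to 8498396 per library, and 3 reads corresponded to 0.353 to 0.458 CPM. The targeted gene Max averaged 54.6 ± 8.8 CPM in the RP group and 88.2 ± 16.2 CPM in the RPM group (SD, 4 libraries in each), a log2 difference of 0.68 that limma did not call (adjusted p = 0.161). The permutation test, exact and two-sided, gave 0.0286 for this, its lower limit with 4 against 4. Whole-gene reads cannot tell a deleted from an intact exon, so the genotype labels remain unchecked. In the addback experiment Max went from 88.5 ± 6.73 up to 240.2 ± 17.2 CPM (SD, 3 libraries in each; log2 1.43, limma adjusted p = 5.75e-07). The same exact permutation test gave 0.1, its lower limit with 3 against 3. RPM replicate 1 bears an animal identifier that also stands on 1 thyroid tumour library labelled Rb and p53 mutant. Addback replicate 3 stood apart from replicates 1 and 2: without it, the share of all genes called with addback rose from 53.2 to 64.3%. The 4 Y-linked genes Ddx3y, Uty, Kdm5d and Eif2s3y, looked at after values were seen, summed to 410 to 423 CPM with empty vector and to 0 to 0.257 CPM with addback. RPM replicate 2, by its name the same line, held 124.8, 43.3, 47.5 and 59.6 CPM of these genes. RP replicate 2 held 0, 0, 0 and 0.12 CPM, and RPM replicate 3 held 0 CPM of each. Whether the empty vector and addback libraries came from the same cells was not tested. Lack of Y transcripts and addback cannot be told apart here. Of 12 C cell and neuroendocrine markers, 11 were higher and 0 lower with addback. Their sum went from 5806 to 6157 CPM with empty vector to a range of 10590 to 12120 CPM, while Calca, which encodes calcitonin, stood at 2788 ± 127 and 2560 ± 274 CPM (limma adjusted p = 0.411). All 5 epithelial markers were higher, from 54.7 to 61.3 CPM in sum to a range of 406 to 498 CPM. Thyroid follicular markers summed to at most 138 CPM in any of the 14 libraries, and Tg, Tshr and Slc26a4 were listed in neither table. That highest sum was mostly Dio1, at 134.1 CPM in RPM replicate 2. Pax8 alone of these markers was called with addback, lower from 1.31 ± 0.50 to 0.21 ± 0.14 CPM (SD, 3 libraries in each, limma adjusted p = 0.00394). Fibroblast markers summed to 29.5 to 39.4 CPM with empty vector and 10.2 to 13.1 CPM with addback, where Col1a1 and Dcn were lower and Pdgfrb higher. Endothelial markers summed to 2.29 to 3.57 and 0.872 to 1.27 CPM, with Tek lower, and the 1 listed immune marker stood at 1.83 to 3.73 CPM with no call. No marker of these 6 lists was called in the lines. In bulk RNA, fewer cells of a type and less RNA per cell cannot be told apart.

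Promoter sequence is shown for 4 members, because MAX-containing dimers bind CACGTG and members that hold the motif moved in both directions. Slc25a33, a mitochondrial pyrimidine nucleotide carrier, and Slc16a1, the lactate and pyruvate transporter MCT1, were lower with addback. Slc7a14, a relative of the cationic amino acid transporters, and the sodium-calcium exchanger gene Slc8a2 were higher. Each sequence is the 250 bases before the RefSeq start on GRCm38.p6, 5′ to 3′ on the gene's strand, with CACGTG in capitals. Each of the 4 genes has 1 start in the table.
Slc25a33: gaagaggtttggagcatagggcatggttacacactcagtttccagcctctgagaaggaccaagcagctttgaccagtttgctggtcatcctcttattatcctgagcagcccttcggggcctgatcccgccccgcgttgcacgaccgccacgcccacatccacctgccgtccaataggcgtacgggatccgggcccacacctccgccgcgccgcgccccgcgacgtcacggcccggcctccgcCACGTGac
Slc16a1: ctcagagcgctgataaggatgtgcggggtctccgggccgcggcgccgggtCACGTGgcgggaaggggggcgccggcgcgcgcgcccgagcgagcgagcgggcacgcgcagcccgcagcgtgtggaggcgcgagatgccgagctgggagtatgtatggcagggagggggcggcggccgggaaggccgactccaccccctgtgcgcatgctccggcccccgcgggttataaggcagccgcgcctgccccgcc
Slc7a14: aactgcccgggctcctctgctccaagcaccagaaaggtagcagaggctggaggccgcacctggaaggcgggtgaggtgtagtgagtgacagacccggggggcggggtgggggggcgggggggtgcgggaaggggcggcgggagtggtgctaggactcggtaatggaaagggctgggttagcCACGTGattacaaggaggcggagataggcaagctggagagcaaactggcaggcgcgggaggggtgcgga
Slc8a2: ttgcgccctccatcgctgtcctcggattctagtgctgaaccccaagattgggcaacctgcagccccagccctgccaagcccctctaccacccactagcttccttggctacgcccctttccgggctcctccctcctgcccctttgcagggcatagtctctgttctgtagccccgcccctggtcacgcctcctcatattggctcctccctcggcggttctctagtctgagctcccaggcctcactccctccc
These stretches lie at chr4:149774268-149774517 (minus strand), chr3:104638414-104638663 (plus), chr3:31310320-31310569 (minus) and chr7:16129576-16129825 (plus). The motif, its own reverse complement, began 8 bases before the start in Slc25a33, 200 in Slc16a1 and 69 in Slc7a14. It was not in this window of Slc8a2. Of 27025 genes in the promoter table, 8.09% held CACGTG in a window from 250 bases before to 50 after a start. Only 166 of the 222 members had an entry, under 80%, so no share over the members is given. A match is a description of the letters and not a site of binding.

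Levels between genes were compared per length, as mean RPKM (CPM divided by gene length in kilobases) over the 8 lines. Mitochondrial carriers had the highest class median among the transporter classes, 10.04 RPKM. Slc25a4 and Slc25a5, the ADP/ATP carriers, led all members with 166 and 151 RPKM. Slc25a5 has many processed pseudogenes that can take or give reads, so its level is uncertain. The mitochondrial phosphate carrier Slc25a3 stood at 80.4 RPKM. Among amino acid carriers the median was 4.72 RPKM, and the glutamine and alanine transporter Slc38a2 was highest with 68.8 RPKM. The heterodimer partners Slc7a5 and Slc3a2, which import large neutral amino acids, stood at 46.2 and 33.7 RPKM. The cystine transporter gene Slc7a11 was at 0.231 RPKM. Glucose and sugar carriers had a median of 3.79 RPKM, led by the glucose transporter Slc2a1 with 35.8 RPKM. Inorganic ion carriers had a median of 4.95 RPKM and metal ion carriers 7.20 RPKM. Their highest members were the sodium-potassium-chloride cotransporter Slc12a2 with 22.1 RPKM and the zinc importer Slc39a6 with 26.3 RPKM. The lactate exporter Slc16a3 led the carboxylate carriers with 35.9 RPKM. Slc29a1, an equilibrative nucleoside transporter, led its class with 28.4 RPKM, as did Slc22a17, a lipocalin receptor of the organic ion family, with 24.8 RPKM. The creatine transporter Slc6a8 (15.5 RPKM), Slc35a4 (22.7 RPKM), the haem transporter Slc48a1 (30.9 RPKM) and the scaffold gene Slc9a3r1 (22.7 RPKM) were highest in the remaining classes. The thyroid iodide symporter Slc5a5 stood at 0.979 RPKM and the vesicular monoamine transporter Slc18a1 at 0.494 RPKM. All members together took 1.14 to 1.29% of the reads in the lines and 1.15 to 1.27% in the addback experiment.

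**Figure D1:**
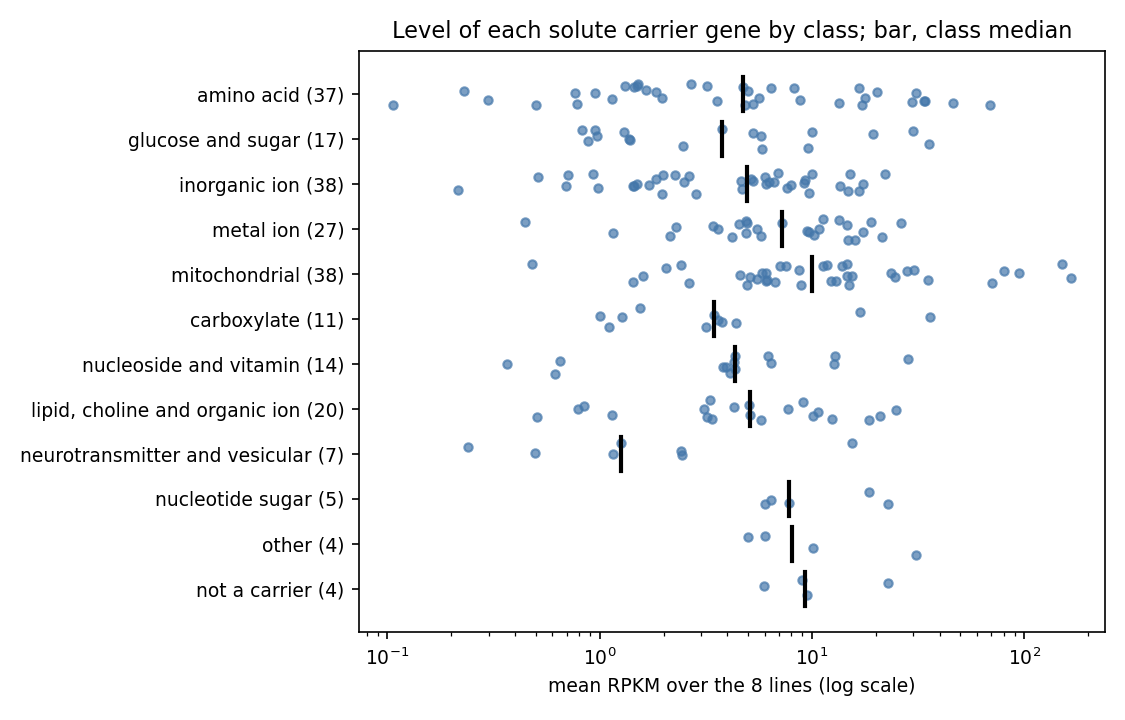
Mean RPKM over the 8 lines (log axis) of each member, 1 point a gene, by class, with the number of members in brackets and the class median as a bar. Mitochondrial carriers have the highest median of the transporter classes, 10.04 RPKM, and the highest member, at 166 RPKM.

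The lines differed from each other more in some members than in others, and the extremes below were picked after their values were seen. The iron exporter Slc40a1 varied most, with 53.8, 16.5, 11.8 and 15 CPM in RP replicates 1 to 4 and 57, 0.374, 0 and 0 CPM in RPM replicates 1 to 4. It was thus read at 11.8 CPM or more in all RP lines and RPM replicate 1, and at or under the value of 3 reads in the other 3 RPM lines. Next came the amino acid transporters Slc6a15 and Slc6a14. Slc6a15 read 0, 6.97, 0 and 11.7 CPM across the RP lines and 4.98, 4.74, 80.1 and 58.1 CPM across the RPM lines. Slc6a14 read 0, 6.61, 1.22 and 1.65 CPM across the RP lines and 0.766, 7.23, 69.1 and 43 CPM across the RPM lines. Both were highest in RPM replicates 3 and 4, and both were near 0 in RP replicate 1. The carnitine carrier Slc25a20 varied least, from 31 to 41 CPM over the 8 lines, followed by the lysosomal transporter Slc15a4, from 28.5 to 37.3 CPM.

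No member passed limma-trend at an adjusted p under 0.05 between RPM and RP lines, where 0.334% of all listed genes did. At an unadjusted p under 0.05 there were 39 members (17.6%), against 15.9% of all genes. The 4 RPM lines lay above all RP lines for 14 members and below them for 11, which is 11.3% of members beside 9.37% of all genes. The median log2 difference was 0.03 over the members and -0.01 over all genes. edgeR's quasi-likelihood test on the recovered reads called 0 members, and DESeq2 called 10 higher and 5 lower, with 4.58% of all genes called. The authors' deposited table called 7 members higher and 5 lower, beside 1.72% and 2.47% of all genes. Without RPM replicate 1, limma called 2 members higher and 4 lower, with 1.82% of all genes called.

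Of the members nearest to the threshold, the neuronal glucose transporter Slc2a3 (GRCm38 chromosome 6, 122727809 to 122801640, minus strand) read 0.12, 0.361, 0.366 and 4.71 CPM across the RP lines and 11.1, 20.1, 30.9 and 12.6 CPM across the RPM lines. All RPM lines lay above all RP lines, of which only replicate 4 had more than 0.366 CPM. The log2 difference was 3.30 (SE 0.56, limma adjusted p = 0.0609). Without RP replicate 4 it was 3.84 with a limma adjusted p = 0.0240, and without RPM replicate 1 it was 3.49 with 0.0401. Slc25a26 (chromosome 6, 94500331 to 94604672, plus strand), which brings S-adenosylmethionine into mitochondria, read 6.38, 6.61, 5 and 8.71 CPM across the RP lines and 14.6, 18.1, 15.3 and 18.8 CPM across the RPM lines. The groups did not overlap, and the log2 difference was 1.22 (SE 0.23, limma adjusted p = 0.0827). The remaining genes of this paragraph were named after their values were seen, except Slc8a2 and Slc40a1. Slc8a2, a sodium-calcium exchanger of neurons, read 95.5, 87.1, 128 and 98.2 CPM across the RP lines and 41.6, 64.5, 54.6 and 54.4 CPM across the RPM lines. Every RPM line was below every RP line, with a log2 difference of -0.92 (SE 0.17, limma adjusted p = 0.0827). The sodium-bicarbonate cotransporter Slc4a7 read 94.5, 94.8, 115 and 97.3 CPM across the RP lines and 69.9, 55.1, 65.8 and 48.5 CPM across the RPM lines, a log2 difference of -0.75 (SE 0.15, limma adjusted p = 0.0941). Its groups did not overlap either. The zinc transporter Slc30a5 had means of 91.1 ± 24.3 and 162 ± 28.2 CPM (SD, n = 4 each), with a limma adjusted p of 0.14. The cationic amino acid transporter Slc7a2 read 7.46, 1.32, 10.1 and 17.4 CPM across the RP lines and 50.4, 17.3, 167 and 141 CPM across the RPM lines. Its RPM replicate 2 lay beside the highest RP line, and the limma adjusted p was 0.17. Slc40a1 had a log2 difference of -2.82 (SE 1.27, limma adjusted p = 0.326) with all lines. Without RPM replicate 1 that was -4.24 with an adjusted p = 0.0143. DESeq2 called Slc2a3, Slc25a26, Slc8a2, Slc4a7, Slc30a5 and Slc7a2, with adjusted p from 4.43e-05 (Slc25a26) to 0.0124 (Slc30a5). It did not call Slc40a1, and edgeR's quasi-likelihood test called no member.

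**Figure D2:**
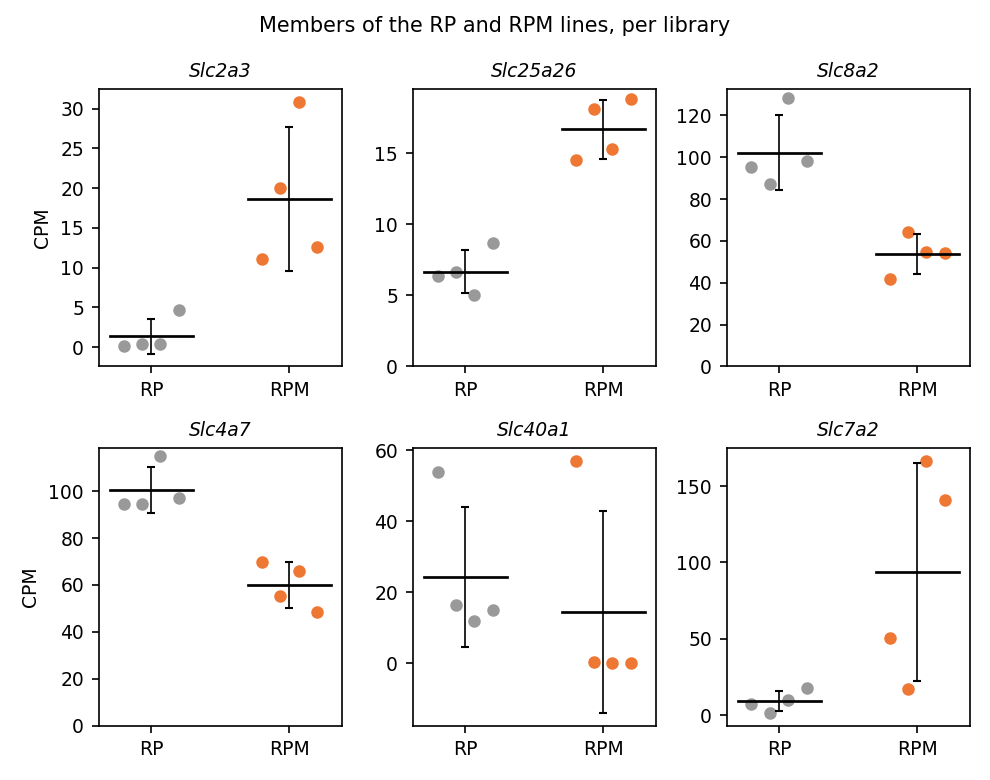
CPM of 6 members in each RP and RPM line (points, replicates 1 to 4 from left to right), with the mean (bar) and SD (whiskers, n = 4). Slc2a3, Slc25a26, Slc8a2 and Slc4a7 do not overlap between groups, while Slc40a1 is high in RPM replicate 1 alone of the RPM lines.

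The reference members that stand for common nutrient uptake showed no call in the lines. Slc7a5 averaged 145 ± 54.5 CPM over RP and 198 ± 85.3 CPM over RPM lines, and the glutamine transporter Slc1a5 at 172 ± 57.5 and 111 ± 52.7 CPM (SD, n = 4 each). Slc2a1 had 129.5 ± 28.9 and 121 ± 15 CPM, and Slc16a3 139 ± 73.7 and 243 ± 84.9 CPM. The mitochondrial citrate carrier Slc25a1 had 76.1 ± 20.1 and 77 ± 26.8 CPM and the ADP/ATP carrier Slc25a4 291 ± 66.6 and 489 ± 176 CPM. The ranges overlapped for all of these but Slc25a4, whose RPM lines all lay above the RP lines, and limma adjusted p ran from 0.272 for Slc25a4 to 0.994 for Slc25a1. No gene of the partner lists given below was called in the lines.

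With Max addback 70 members were higher and 50 lower among 205 tested, at a limma-trend adjusted p under 0.05. That is 58.5% of the members, beside 53.2% of all 14056 genes, of which 27.7% were higher and 25.5% lower. The addback libraries lay all above or all below the empty vector libraries for 79 and 61 members (68.3%), beside 61.9% of all genes. The median log2 change was 0.07 over members and -0.00 over all genes. A log2 change of at least 1 in size, or 2-fold, was called higher for 25 members (12.2%) and lower for 11 (5.37%), beside 10.5% and 5.04% of all genes. The authors' deposited table called 53 members higher and 28 lower, beside 18.9% and 13.1% of all genes, and 79 of these 81 had the same sign of call in limma. Without addback replicate 3 there were 77 higher and 59 lower, beside 64.3% of all genes. For each count by class or partner list below, the share of all genes is 27.7% higher and 25.5% lower. Changes are given on the log2(CPM + 1) scale, which understates those of low genes, and values are listed for empty vector replicates 1 to 3 and then for addback replicates 1 to 3.

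**Figure D3:**
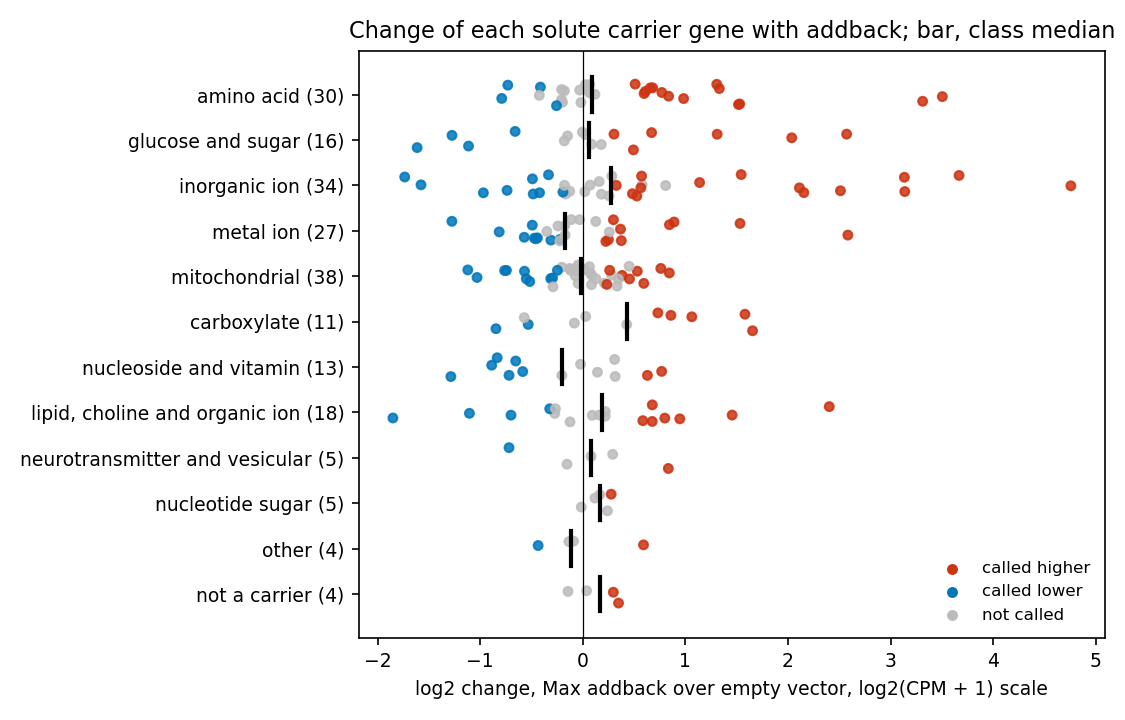
Log2 change with addback of each of 205 members, by class (number tested in brackets), coloured by the limma call, with the class median as a bar. The largest rises lie among inorganic ion and amino acid carriers, and all mitochondrial carriers lie between -1.12 and 0.84.

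Inorganic ion carriers held the largest rises, and calcium exchangers led them. Of 34 tested, 14 were higher and 9 lower (41.2% and 26.5%, beside 27.7% and 25.5% of all genes). The median log2 change was 0.27. Of the 7 Slc8 and Slc24 genes, 6 were higher and 0 lower, with or without addback replicate 3. This group was not among the planned classes and was set apart with results of these data known. Its count is a description only. Positions are those of GENCODE vM21 on GRCm38. Slc24a3 (chromosome 2, 145167754 to 145642166, plus strand), a potassium-dependent sodium-calcium exchanger, had 0, 0.426 and 0.153 CPM with empty vector and 33.4, 32 and 27.6 CPM with addback. It went from at most 3 reads to all libraries above 27 CPM, a change in log2 of 4.76 (SE 0.17, limma adjusted p = 1.98e-08). Slc8a2 (chromosome 7, 16129826 to 16161063, plus strand) rose from 4.72, 4.55 and 5.34 to 75.9, 76.8 and 68 CPM, a change in log2 of 3.67 (SE 0.11, limma adjusted p = 6.51e-09). Slc8a3, its relative in brain and muscle, rose from 1.29, 1.42 and 0.916 to 16.8, 21.1 and 17.5 CPM, by 3.14 (SE 0.16, limma adjusted p = 1.52e-07). Slc24a2 rose from 0.572, 0.284 and 0.458 to 14.2, 13.8 and 7.84 CPM, by 3.13 (SE 0.22, limma adjusted p = 1.83e-06). In all 4 genes the groups were far apart, though addback replicate 3 was the lowest addback library for Slc8a2, Slc24a2 and Slc24a3. Slc8a1, Slc24a4 and Slc24a5 were named after their values were seen. Slc8a1, the exchanger of heart, rose from 127, 114 and 122 to 436, 419 and 243 CPM (log2 1.54, limma adjusted p = 8.45e-05). Slc24a4 rose from 3.29, 2.84 and 3.82 to 27.3, 20.4 and 10.5 CPM (log2 2.15, limma adjusted p = 0.00013), and its 3 addback libraries differed widely. Slc24a5, which acts in pigment organelles, had 3.14, 3.55 and 3.66 and 3.81, 3.98 and 4.11 CPM and was not called (limma adjusted p = 0.362). Together the 7 genes took 0.012 to 0.014% of reads with empty vector and 0.040 to 0.062% with addback. Their share was 0.043 to 0.052% in the RP lines and 0.024 to 0.038% in the RPM lines, without overlap. Limma called no gene of the 7 in the lines. The cell type markers and the Y-linked genes that moved beside these and the following groups are given above. Their part in the changes was not tested.

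**Figure D4:**
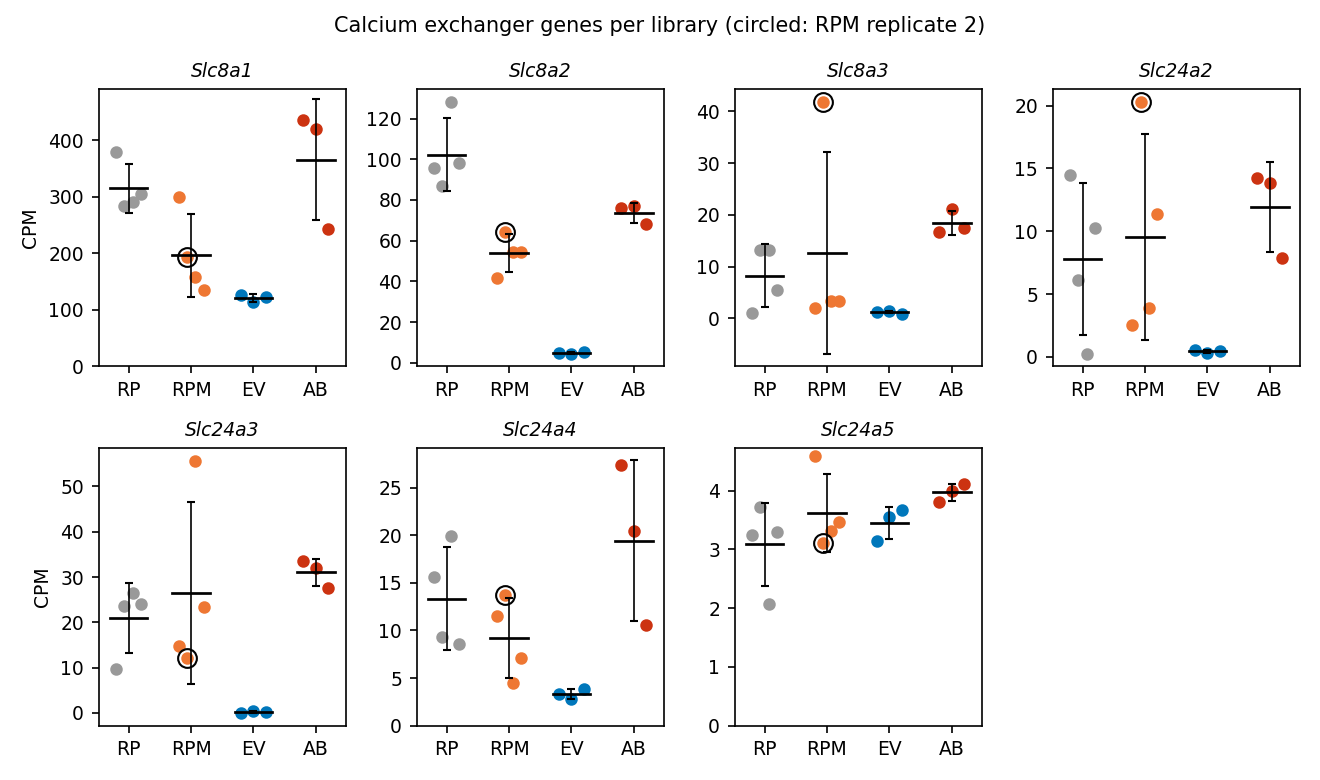
CPM of the 7 calcium exchanger genes per library in RP and RPM lines, with empty vector (EV) and with addback (AB), with the mean (bar) and SD (whiskers, n = 4, 4, 3 and 3). EV lies below AB for all 7 genes, of which Slc24a5 was not called. For the 6 genes called higher, the circled RPM replicate 2, by its name the same line without a vector, lies above EV. The lines and the EV and AB libraries were normalised in separate tables.

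Other ion carriers moved in both directions. Slc26a10, of the anion exchanger family, and the neuronal potassium-chloride cotransporter Slc12a5, both named after their values were seen, rose by 2.51 and 2.11 on the log2 scale. Slc26a8, named likewise, rose from 1.43, 2.13 and 1.07 to 4.7, 4.23 and 4.63 CPM (limma adjusted p = 0.000505). Slc12a5 went from 18.6, 18.9 and 20.3 to 96.9, 82.8 and 80.7 CPM (limma adjusted p = 9.38e-08). The electrogenic sodium-bicarbonate cotransporter Slc4a5 fell from 50.6, 48.5 and 40.5 to 14.9, 13.9 and 11.1 CPM, a change in log2 of -1.74 (SE 0.13, limma adjusted p = 3.42e-06). The sulfate transporter Slc26a11 fell from 20.6, 22.9 and 23.4 to 7.12, 4.98 and 8.74 CPM, a change in log2 of -1.58 (SE 0.17, limma adjusted p = 4.24e-05). No library of either gene overlapped between groups. The phosphate transporter Slc20a2 fell from 62.3, 56 and 63.2 to 29.9, 29.9 and 31.4 CPM (log2 -0.97, adjusted p = 9.44e-06). Its paralogue Slc20a1 stood at 109.6, 101 and 101 and 97.2, 95.4 and 85.2 CPM and was not called (limma adjusted p = 0.112). Slc12a2 had 379.9, 402 and 382 and 516, 528 and 388 CPM, without a call (adjusted p = 0.0654), and addback replicate 3 lay within the empty vector range. Slc5a5 stood between 0.572 and 1.93 CPM in the 6 libraries. Of the 5 listed sodium pump subunits, which build the gradient that many of these carriers use, 4 rose and 0 fell. Of the 4 kinases that regulate Slc12 cotransporters, Stk39 and Oxsr1 fell, Stk39 from 99.3, 91.9 and 96.5 to 2.03, 2.12 and 1.67 CPM (limma adjusted p = 1.53e-09).

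Metal ion carriers split evenly, with 9 higher and 9 lower of 27 tested (33.3% each, beside 27.7% and 25.5% of all genes). The median log2 change was -0.17, or -0.07 without addback replicate 3. Slc39a8, which imports zinc, manganese and iron, rose from 6.29, 6.54 and 5.19 to 42, 41.5 and 39.2 CPM, a change in log2 of 2.58 (SE 0.12, limma adjusted p = 8.69e-08). The zinc exporter Slc30a4 fell from 169.6, 187 and 162 to 78.8, 72.6 and 61.8 CPM, a change in log2 of -1.28 (SE 0.10, limma adjusted p = 4.13e-06). Each lay outside the other group's range in all 3 libraries. The synaptic vesicle zinc transporter Slc30a3, named after its values were seen, rose from 1.29, 0.568 and 0.763 to 3.94, 3.49 and 5.91 CPM (limma adjusted p = 0.000217). Of the 8 Slc30 exporters 3 were higher and 4 lower, and of the 12 Slc39 importers 4 were higher and 3 lower. These families were set apart outside the planned classes, and their counts are small. Slc30a1, the plasma membrane zinc exporter, fell from 37.6, 35.4 and 36.5 to 31.6, 24 and 23.9 CPM (limma adjusted p = 0.00921). Slc39a6 rose from 77, 81.3 and 82.1 to 95.3, 97.9 and 88.4 CPM, a log2 change of only 0.22 (adjusted p = 0.0302). Slc40a1 was low throughout, with 3.43, 1.42 and 1.99 CPM against 0.89, 1.25 and 0.386 CPM (log2 -0.81, adjusted p = 0.0231). That call was lost without empty vector replicate 1 or 3, with limma adjusted p of 0.0963 and 0.0541. Of 8 genes of metal storage and sensing, 3 rose and 2 fell: the metallothioneins Mt1 and Mt2 and the iron regulator Ireb2 rose, and the ferritin chain Fth1 and Aco1 fell. Mt1 went from 49.9, 37.2 and 41.2 to 88.5, 84.7 and 129.9 CPM.

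Amino acid carriers included 14 higher and 4 lower of 30 tested (46.7% and 13.3%, beside 27.7% and 25.5% of all genes). The median log2 change was 0.09, or 0.16 without addback replicate 3. Slc6a17, a vesicular transporter of neutral amino acids in neurons, rose from 0.429, 0.71 and 0.305 to 18.8, 14.8 and 13.9 CPM, a change in log2 of 3.50 (SE 0.17, limma adjusted p = 1.48e-07). Slc7a14 rose from 0.286, 0.142 and 0.611 to 14.5, 13.1 and 9.64 CPM, by 3.31 (SE 0.20, limma adjusted p = 5.25e-07). Both were near the value of 3 reads with empty vector, and far above it in every addback library. Slc38a11, with 0.143, 0 and 0 and 2.42, 2.74 and 1.16 CPM, rose by 1.53 on the log2(CPM + 1) scale, from a total of 1 read in the 3 empty vector libraries. Slc7a4, a relative of that family with no known substrate, and the cationic amino acid transporter Slc7a3 rose by 1.52 and 1.33 (limma adjusted p = 0.000266 and 0.000251). Slc7a7, named after its values were seen, exports cationic amino acids and rose from 0.286, 1.14 and 1.07 to 3.18, 3.74 and 3.34 CPM (limma adjusted p = 0.000607). Slc1a5 rose from 88, 83.8 and 85 to 140.3, 139.6 and 161 CPM (log2 0.77, adjusted p = 2.92e-05), and Slc38a2 from 454, 411 and 416 to 649, 634 and 546 CPM (log2 0.51, adjusted p = 0.00114). These 2 glutamine transporters were higher in all addback libraries. The arginine and lysine transporter Slc7a1 (chromosome 5, 148327410 to 148399904, minus strand) fell from 211, 196 and 209 to 136, 129 and 93.8 CPM, a change in log2 of -0.79 (SE 0.13, limma adjusted p = 0.000543). The serine and alanine exchanger Slc1a4 fell from 71.3, 59.8 and 70.1 to 35, 40.4 and 45 CPM, a change in log2 of -0.73 (SE 0.11, limma adjusted p = 0.000384). Neither overlapped between groups. The glycine transporter Slc6a9 and Slc7a6 had smaller log2 changes of -0.41 and -0.26 (adjusted p = 0.0301 and 0.0403). Both calls were lost in DESeq2, with adjusted p = 0.0865 and 0.0781, and in several fits without 1 library. The system L pair was not called: Slc7a5 had 216, 177 and 203 and 168, 169 and 178 CPM (adjusted p = 0.0702) and Slc3a2 156, 144 and 149 and 141, 130.0 and 172 CPM (adjusted p = 0.825). Slc7a11 stood between 0.257 and 1.29 CPM in these libraries. Of 8 listed genes of amino acid sensing, 1 rose and 3 fell. Castor2 rose and the arginine sensor Castor1, Sesn2 and Rragc fell, while the stress factor Atf4 had 221 ± 8.85 and 243 ± 24.1 CPM (SD, n = 3, limma adjusted p = 0.207).

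Glucose and sugar carriers numbered 6 higher and 4 lower of 16 tested (37.5% and 25%, beside 27.7% and 25.5% of all genes). The median log2 change was 0.06. Slc37a1, a phosphate-linked glucose-6-phosphate antiporter, rose from 3.57, 3.27 and 3.82 to 25.9, 26.8 and 25.4 CPM, a change in log2 of 2.57 (SE 0.12, limma adjusted p = 9.67e-08). Slc2a12 rose from 0.286, 0.142 and 0.305 to 4.07, 5.6 and 2.96 CPM, by 2.04 (SE 0.21, limma adjusted p = 2.34e-05). Slc5a9 rose by 1.31 (limma adjusted p = 0.000176). The groups of these 3 genes were separate. Slc2a3 rose from 15.4, 15.1 and 12.4 to 20.1, 20.9 and 20.3 CPM (log2 0.49, adjusted p = 0.00558), and its RPM lines had lain above its RP lines. The urate transporter Slc2a9 rose by 0.67 (adjusted p = 0.0214), a call lost without empty vector replicate 2 or addback replicate 2. The myo-inositol transporter Slc5a3 fell from 27.3, 26.3 and 33.9 to 9.28, 9.46 and 7.71 CPM, a change in log2 of -1.61 (SE 0.14, limma adjusted p = 6.14e-06). Slc37a2 fell by 1.27, the insulin-regulated glucose transporter Slc2a4 by 1.11 and Slc2a6 by 0.66 on the log2 scale (limma adjusted p = 0.000326, 0.00113 and 0.00122). Slc2a1, the most abundant of the class, had 188, 171 and 210.1 and 159, 197 and 258 CPM and was not called (adjusted p = 0.66); its groups overlapped. Of 4 regulators of sugar uptake, Txnip rose, and Arrdc4 and hexokinase 2 (Hk2) fell. Hk2 went from 247, 217 and 268 to 128, 155 and 177 CPM (limma adjusted p = 0.00112).

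Mitochondrial carriers had 8 higher and 10 lower of 38 tested (21.1% and 26.3%, beside 27.7% and 25.5% of all genes). The median log2 change was -0.02, and no rise reached 1 on the log2(CPM + 1) scale. Without addback replicate 3 the counts were 9 and 14 and the median -0.06. Slc25a26 fell from 21.9, 21.4 and 21.5 to 10.0, 7.1 and 11.6 CPM, a change in log2 of -1.12 (SE 0.16, limma adjusted p = 0.000243). Slc25a33 (chromosome 4, 149744036 to 149774277, minus strand) fell from 36.2, 36.5 and 40.1 to 16.1, 15.7 and 22.5 CPM, a change in log2 of -1.03 (SE 0.14, limma adjusted p = 0.000162). The ornithine carrier Slc25a15 (chromosome 8, 22375551 to 22398597, minus strand) fell from 55.6, 47 and 49.8 to 31.8, 26.8 and 30.1 CPM, a change in log2 of -0.76 (SE 0.10, limma adjusted p = 0.000159). All 3 were lower in every addback library than in any empty vector library. Slc25a30 fell by 0.74 and Slc25a32, which carries folate or FAD, by 0.57 on the log2 scale (limma adjusted p = 3.23e-05 and 0.00167). The most abundant member, the ADP/ATP carrier Slc25a4, fell from 642, 656 and 637 to 398, 422 and 506 CPM (log2 -0.55, adjusted p = 0.00109). Slc25a3 fell by 0.25 (adjusted p = 0.0466), and Slc25a5, with 397, 402 and 384 and 390.3, 408 and 502 CPM, was not called. The largest rise on the log2(CPM + 1) scale was that of the oxodicarboxylate carrier Slc25a21 (0.84, limma adjusted p = 0.00492). It read 1.72, 0.995 and 1.53 CPM with empty vector and 4.07, 2.49 and 3.47 CPM with addback. At this low level the added 1 lowers the estimate, and the log2 change was 1.23 in edgeR and 1.25 in DESeq2. The ATP-magnesium/phosphate carrier Slc25a25 rose from 29.6, 31.1 and 29.6 to 50.5, 50.8 and 53.9 CPM (log2 0.76), Slc25a29 by 0.59, the glutamate carrier Slc25a22 by 0.53 and the branched-chain amino acid carrier Slc25a44 by 0.46. Their limma adjusted p ran from 3.87e-05 for Slc25a25 to 0.01 for Slc25a29. The citrate carrier Slc25a1 and the dicarboxylate carrier Slc25a10 had log2 changes of 0.33 and -0.07, neither called. Of 13 mitochondrial transport genes without an Slc symbol, Sfxn4 rose, and Sfxn2, Vdac1, Mcu and Mtch2 fell.

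**Figure D5:**
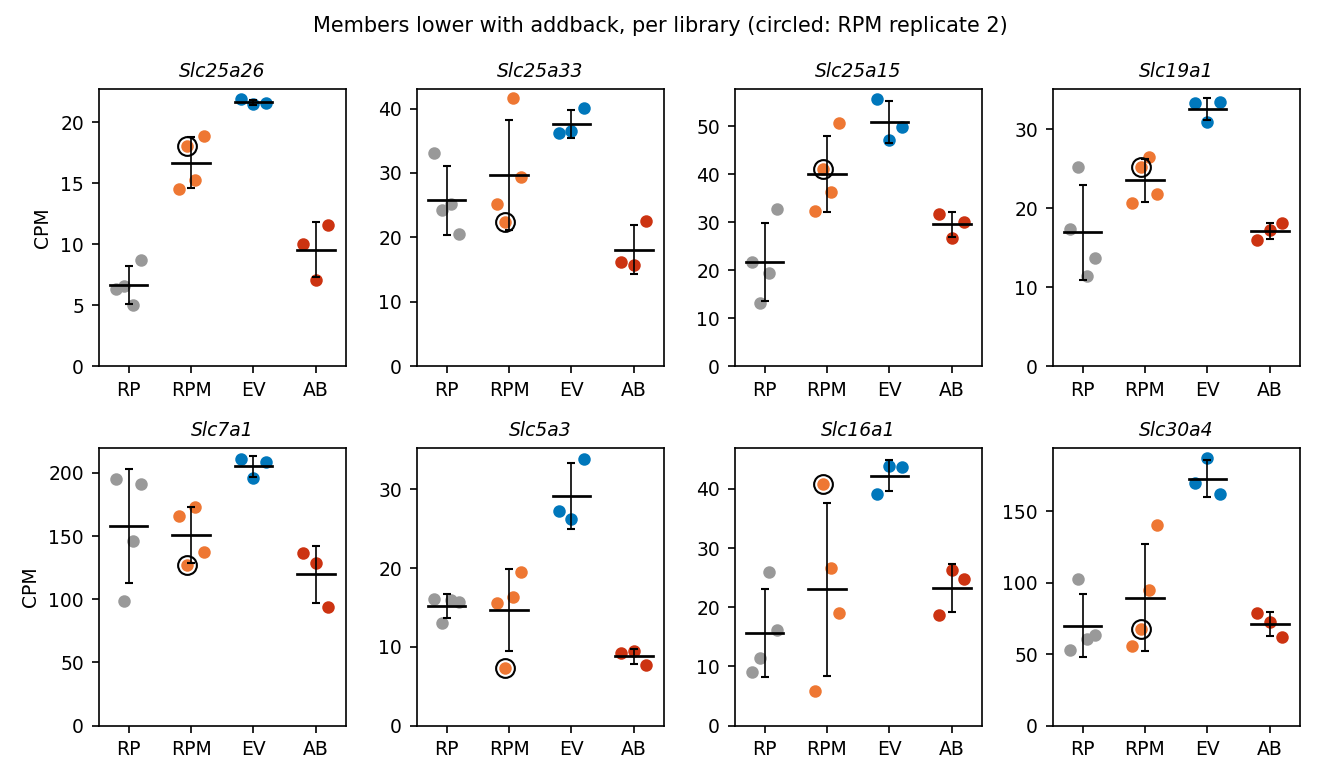
CPM of 8 members called lower with addback, per library in RP and RPM lines, with empty vector (EV) and with addback (AB), with the mean (bar) and SD (whiskers, n = 4, 4, 3 and 3). EV lies above AB for all 8, and the circled RPM replicate 2 lies near AB for Slc5a3 and Slc7a1 but near EV for Slc16a1. The lines and the EV and AB libraries were normalised in separate tables.

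Carboxylate carriers had 5 higher and 2 lower of 11 tested (45.45% and 18.18%, beside 27.7% and 25.5% of all genes). The median log2 change was 0.43, or 0.69 without addback replicate 3. The lactate exporter Slc16a3 (chromosome 11, 120948480 to 120960868, plus strand) rose from 87.2, 87.8 and 86.1 to 209.9, 281 and 357 CPM, a change in log2 of 1.66 (SE 0.16, limma adjusted p = 1.41e-05). Slc16a1 (chromosome 3, 104638668 to 104658462, plus strand) fell from 39.2, 43.9 and 43.7 to 18.7, 26.3 and 24.8 CPM, a change in log2 of -0.85 (SE 0.13, limma adjusted p = 0.000402). These 2 of the lactate transporters thus moved in opposite directions, and neither overlapped between groups. Slc16a6 rose by 1.58 and Slc16a13 fell by 0.53 (limma adjusted p = 4.13e-05 and 0.0111). Bsg and Emb, the chaperones that bring these transporters to the membrane, both fell. Bsg went from 1861, 1685 and 2006 to 1139, 1106 and 1683 CPM (log2 -0.52, limma adjusted p = 0.021), and addback replicate 3 lay nearly at the lowest empty vector library.

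Nucleoside and vitamin carriers had 2 higher and 6 lower of 13 tested (15.38% and 46.15%, beside 27.7% and 25.5% of all genes). The median log2 change was -0.20, or -0.31 without addback replicate 3. The reduced folate carrier Slc19a1 (chromosome 10, 77032241 to 77061002, plus strand) fell from 33.3, 31 and 33.4 to 16, 17.3 and 18.1 CPM, a change in log2 of -0.89 (SE 0.10, limma adjusted p = 4.6e-05). Slc29a1 fell from 218, 202 and 215 to 115, 131 and 139 CPM, a change in log2 of -0.72 (SE 0.09, limma adjusted p = 7.29e-05). The vitamin C transporter Slc23a1 fell by 1.29 from a mean of 4.37 ± 1.64 CPM (SD, n = 3, limma adjusted p = 0.000632). Slc46a3, a lysosomal transporter, and Slc23a3 rose by 0.77 and 0.63 (adjusted p = 0.00378 and 0.01). The call of Slc23a3 was lost in DESeq2 (adjusted p = 0.0866).

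Lipid, choline and organic ion carriers had 7 higher and 4 lower of 18 tested (38.9% and 22.2%, beside 27.7% and 25.5% of all genes). The median log2 change was 0.19. Slc44a3, of the choline transporter-like family, rose from 1, 0 and 0.305 to 5.85, 6.23 and 6.81 CPM (log2 2.40, limma adjusted p = 2.04e-05). Its relative Slc44a1, a choline transporter, fell from 182, 194 and 194 to 91.5, 95.5 and 77.4 CPM (log2 -1.10, adjusted p = 5.15e-06). These 2 genes of the choline family moved oppositely. Slc22a17 rose from 49.2, 49.2 and 52.7 to 132, 131 and 158 CPM (log2 1.46), and Slc10a4, a vesicular protein of neurons, fell from 6.15, 4.55 and 6.72 to 1.14, 0.498 and 1.03 CPM (log2 -1.85), with limma adjusted p of 7.02e-07 and 3.42e-05. In the small classes, the vesicular glutamate transporter Slc17a7 rose by 0.83 and Slc6a8 fell by 0.72 (adjusted p = 0.00828 and 1.64e-05). The peptide transporter Slc15a2 rose by 0.59, the lysosomal Slc15a4 fell by 0.44 and Slc35a4 rose by 0.28. Slc48a1, Slc18a1 and Slc9a3r1 were not called, and Slc9a3r2 and Slc4a1ap rose by 0.35 and 0.30. The calls of Slc35a4, Slc9a3r2 and Slc4a1ap were each lost in 2 or more fits that left out 1 library.

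By its name, the line of the addback experiment was also read without a vector, as RPM replicate 2. Since the 2 tables were normalised separately, its levels are set beside the others without a test. For all 25 members called at least 2-fold higher with addback, RPM replicate 2 lay above every empty vector library, as it did for 93.5% of the 1417 genes so called and listed in both tables. Slc44a3 came closest to an exception, with 1.25 CPM in RPM replicate 2 and at most 1 CPM with empty vector. A call of this kind favours genes with low empty vector values. Members also had to average at least 1 CPM over lines that include RPM replicate 2, a filter not set on the 1417 genes. Both choices work towards the count of 25, so it is a description only. RPM replicate 2 was nearer to the addback mean than to the empty vector mean, on the log2(CPM + 1) scale, for 18 of those 25, beside 70.1% of the 1417 genes. Slc8a2 stood at 64.5 CPM in RPM replicate 2, 4.87 ± 0.42 CPM with empty vector and 73.6 ± 4.86 CPM with addback (SD, n = 3 each). Slc16a3 stood at 356, 87 ± 0.857 and 283 ± 73.8 CPM in the same order, and Slc39a8 at 63, 6 ± 0.716 and 40.9 ± 1.47 CPM. For these 3 genes the empty vector libraries were thus the ones that stood low. Of the 11 members called at least 2-fold lower, 9 were nearer to addback, beside 64.1% of 594 genes so called and listed in both tables. Among the 9 was Slc5a3 with 7.36, 29.2 ± 4.13 and 8.82 ± 0.964 CPM. Slc25a26 was nearer to empty vector, with 18.1, 21.6 ± 0.221 and 9.57 ± 2.27 CPM. The same held for Slc16a1, Slc19a1 and Slc25a15, whose RPM replicate 2 levels were 40.8, 25.2 and 41 CPM. Over all calls, RPM replicate 2 was nearer to addback for 49 of 70 members called higher (70%), beside 66.0% of all genes called higher and listed in both tables. Among members called lower it was nearer for 30 of 50 (60%), beside 60.7% of all such genes. The shares of the members lie near those of all genes.

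The log2 change of the lines (RPM over RP) less that of the vectors (empty over addback) is 0 for a gene with equal log2 changes in both. It is on voom's log2 CPM scale, where the value of a gene with 0 reads in a library depends on the small count that voom adds. This difference was called for 67 of 205 members by voomWithQualityWeights of limma (32.7%), 44 above and 23 below 0, beside 28.3% of 13528 shared genes. Without quality weights 13 and 7 were called. The fit pools the spread between separate lines with that among the vector libraries, which are of a single line, by its name RPM replicate 2. Its p-values therefore do not measure the spread between lines alone. It was highest for Slc24a3, at 7.66 (SE 0.70, limma adjusted p = 6.29e-06), which all 8 lines held at 9.63 to 55.6 CPM and the empty vector libraries nearly lacked. It was lowest for Slc40a1, at -7.79 (SE 1.58, adjusted p = 0.00257). That gene was low with either vector. It read 57 CPM in RPM replicate 1 but 0.374, 0 and 0 CPM in RPM replicates 2 to 4. Its log2 difference between the lines, -2.82 on the log2(CPM + 1) scale, was not called by limma-trend. Slc8a2 had 3.00 (SE 0.19, adjusted p = 1.52e-07), although its level was lower on average in RPM than in RP lines and lower with empty vector than with addback. Slc16a3 had 2.43 (SE 0.37, adjusted p = 0.000381), with RPM lines higher than RP lines on average and empty vector lower than addback. Slc25a26 had -0.10 (SE 0.33, adjusted p = 0.851), Slc25a15 0.02 (SE 0.29) and Slc19a1 -0.31 (SE 0.23). These 3 carriers of methyl donor, ornithine and folate were on average higher in RPM than in RP lines and lower with addback than with empty vector. Of these 2 changes, limma called the one with addback for each gene and the one in the lines for none. The 3 genes are examples, and no count of the members or genes that did likewise is given. A difference that was not called does not show that the changes were equal.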

How the data were processed

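RNA was sequenced from 8 tumour cell lines and from 6 libraries, by name of 1 of these lines, with empty vector or Max addback. Per the submitters' processing notes, the tools included bcl2fastq 1.8.4, TopHat2 2.1.0, HTSeq 0.6.1 and edgeR, and the build was mm10. No source used here gives the strand setting of counting, so overlapping and antisense genes may share reads. Per the file headers, the authors deposited CPM values scaled with TMM (a signal per gene that is not a raw count), and RPKM values, together with their own log2 fold changes, p-values and a call per gene (a score of -1, 0 or 1). The lines and the addback experiment were deposited as separate tables and were fitted separately.

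The CPM values were whole multiples of 1 read in 100% of cases (within 0.01 read), and reads recovered in this way gave the depths and served the alternatives. The main test was limma-trend (limma 3.58.1, R 4.3.3) on log2(CPM + 1) over all listed genes, with Benjamini-Hochberg adjustment and a threshold of 0.05. A count of 0 allows up to 3 reads, by counting error only. The difference between the comparisons was fitted with voomWithQualityWeights on the recovered reads of 14 libraries. Alternatives were edgeR 4.0.16 quasi-likelihood, DESeq2 1.42.0, other scalings, pseudocounts of 0.5 and 2, filters on low values, a replicate block and leaving out each library. The test was tried on simulated data with known changes first.

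Genes were named by a rule: per class and direction the called members with the largest change with addback (up to 5 for the amino acid, sugar, ion and mitochondrial classes and up to 2 for others), a fixed list of reference members, the member with the highest RPKM of each class and the members nearest the threshold. Members, lists and rule were chosen with earlier results of these data known. Names outside the rule are said to be such, and 2 members that it names are not reported here. Positions came from GENCODE vM21, where all 222 members were found by gene identifier, 220 with the same version. Promoter sequences came from RefSeq on GRCm38.p6.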

Additional observations from a re-analysis of the deposited data

Results flagged for a closer look

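In 12 of 154 groups of 4 lines (7.79%) the highest or lowest library of a named member stood apart from the other 3, where chance gives about 1 in 20. In RP lines these were Slc2a1 at 86.3 CPM and Slc2a3 at 4.71 CPM in replicate 4, Slc40a1 at 53.8 CPM in replicate 1, Slc5a3 at 13 CPM in replicate 2 and Slc7a11 at 1.08 CPM in replicate 2. In RPM lines Slc2a4 at 4.98 CPM and Slc40a1 at 57.0 CPM stood apart in replicate 1, Slc8a3 at 41.9 CPM in replicate 2, Slc6a17 at 58.2 CPM and Slc39a8 at 19.3 CPM in replicate 3, Slc15a4 at 28.5 CPM in replicate 4 and Slc20a2 at 100.5 CPM in replicate 4.

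The log2 difference between the comparisons, that of the lines (RPM over RP) less that of the vectors (empty over addback), passed the threshold for 39 of the 77 named members, beside 32.7% of all members tested and 28.3% of all genes. The named members were chosen in large part for their change with addback, which enters this difference. The limits given above for the pooled fit and for Slc40a1 hold here too. Among calcium exchangers it was 7.66 for Slc24a3, 5.78 for Slc24a2, 3.47 for Slc8a3 and 3.00 for Slc8a2. Other ion and metal carriers had 4.18 (Slc39a8), -7.79 (Slc40a1) and -1.81 (Slc26a11). Amino acid carriers had 4.99 (Slc38a11), 4.87 (Slc7a14), 3.18 (Slc6a17), 2.13 (Slc7a3), 1.17 (Slc7a4) and 0.84 (Slc38a2) above 0. Below 0 were -1.14 (Slc1a4), -1.04 (Slc6a9) and -0.84 (Slc7a1). Sugar carriers had 5.17 (Slc2a12), 4.46 (Slc2a3), 3.19 (Slc37a1), -3.60 (Slc2a4) and -1.57 (Slc5a3). The mitochondrial carriers Slc25a44 and Slc25a25 had 1.18 and 0.70, while Slc25a30 and Slc25a33 had -1.17 and -0.88. Among the rest, values above 0 were 4.25 (Slc44a3), 3.33 (Slc16a6), 2.43 (Slc16a3), 1.42 (Slc22a17), 0.67 (Slc4a1ap), 0.60 (Slc9a3r2) and 0.46 (Slc35a4). Values below 0 were -3.42 (Slc10a4), -2.01 (Slc9a3r1), -1.14 (Slc44a1), -0.93 (Slc6a8), -0.88 (Slc29a1), -0.84 (Slc48a1) and -0.71 (Slc15a4).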

How the results depend on the processing

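Between the lines, limma called 0 members higher and 0 lower, and DESeq2 called 10 and 5. Leaving out 1 line gave 0 to 2 higher and 0 to 4 lower. Without RP replicate 4 only Slc2a3 was called. Without RPM replicate 1 Slc2a3 and Slc25a44 were higher and Slc8a1, Slc4a7, Slc2a4 and Slc40a1 lower. The log2 difference of Max passed the threshold in DESeq2 alone, at 0.69 with an adjusted p = 0.0202, against 0.161 in limma and 0.109 to 0.394 in the other fits. Counts with addback (70 and 50) stayed within 1.5 times under every alternative run: 59 to 77 higher and 41 to 59 lower without 1 library, and 82 and 43 without TMM, which moved the median of all genes by 0.07. The difference between comparisons fell to 13 and 7 members without quality weights. The cause was not tested. With the replicate number as a block the counts were 0 and 0 in the lines and 72 and 48 with addback. Same-numbered libraries did not all deviate together: the correlations were 0.40, 0.05, 0.01 and 0.13 in the lines and 0.03, 0.01 and 0.08 with addback, above 0.1 in 2 of 4 pairs and 0 of 3, so the numbers were not taken to pair them. In the lines 1 of 4 and with addback 2 of 3 correlated best with their own number. Of the named members' own alternatives, 774 kept their call and 24 lost it, with none reversed. The counts of 2 classes moved by over 1.5 times without addback replicate 3, an alternative chosen after seeing the data: nucleotide sugar carriers higher from 1 to 3, and genes that are not carriers lower from 0 to 1. Depth limits members near 3 reads, 0.353 to 0.458 CPM, such as Slc38a11 and Slc24a3 with empty vector.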
